A study of Homo sapiens with 4 samples.

Results

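The zinc finger gene cluster of chromosome band 19p13.2 near 12 Mb was taken as all CpGs between 11700000 and 12800000 of chromosome 19 (hg19, the same assembly as GRCh37). This window of 1.1 Mb held 17756 of the 27710999 CpGs measured on the autosomes and X, and it was cut into 220 tiles of 5 kb. It contains 24 protein-coding zinc finger genes, each with 6 to 19 C2H2 fingers encoded by its last coding exon, and 6 other protein-coding genes at its far edge (MAN2B1, WDR83, WDR83OS, DHPS, GNG14 and FBXW9), of which FBXW9 (12799730 to 12807445) lies almost wholly beyond the window's end. The rule took CpGs by position and used no methylation value.

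Methylation of DNA was read by EM-seq (enzymatic methyl sequencing). Here enzymes convert cytosines that carry no methyl group, which then appear as T in the reads, whereas methylated cytosines appear as C. The DNA came from HEK293T, a line of human embryonic kidney cells, either wild type (WT) or lacking ZNF274 (ZNF274KO), with 2 libraries of each. The knockout was made with CRISPR-Cas9 and a guide on each side of the gene, and edited cells were selected with puromycin and grown from single sorted cells. Whether the libraries of a group are separate clones or repeats of one culture is not given in the sources used here, so that the spread between them may be technical. Over the ZNF274 gene itself, at 58694428 to 58724928 on chromosome 19, WT 1 had 5142 reads at CpGs and WT 2 had 4265, whereas ZNF274KO 1 had 0 and ZNF274KO 2 had 14.

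KRAB zinc finger proteins (KZFPs) bind DNA through arrays of C2H2 fingers and recruit the corepressor KAP1 and the histone methyltransferase SETDB1, which writes the repressive mark H3K9me3. Their genes arose by repeated duplication and lie in tandem clusters, many of them on chromosome 19. ZNF274 is one of these proteins and is known to bind within the finger-encoding 3′ exons of other zinc finger genes. The level used throughout gives, out of all reads at CpGs, the percentage that show a methylated cytosine, and differences are given in percentage points. In mammalian genomes CpG-rich promoters are usually unmethylated, while the bodies of transcribed genes are usually highly methylated.

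The window was covered by 174211 (WT 1), 145766 (WT 2), 169799 (ZNF274KO 1) and 135705 (ZNF274KO 2) CpG reads, at a median of 10, 8, 9 and 7 reads per CpG. The window's share of all reads in ZNF274KO was 1.01 times that in WT, and its share of chromosome 19 reads was 1.13 times that in WT. Of its CpGs, 10651 (59.99%) lie in a stretch of 50 bases that occurs once in the converted genome. No CpG of the window exceeded 5 times the median depth.

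The stretches of 300 bases printed next hold patterns that the results turn on: a finger-encoding exon that gained methylation and a CpG-dense part of a promoter with little methylation in every library (at most 6.70%). Both are the plus strand of GRCh37, 5′ to 3′, with CpGs in capitals. The first lies at chr19:12256115-12256414, in the last coding exon of ZNF625, a gene of the minus strand, so that the printed letters are the reverse complement of the coding strand. It was chosen after its values were seen, as the exon with the largest rise.
Last coding exon of ZNF625: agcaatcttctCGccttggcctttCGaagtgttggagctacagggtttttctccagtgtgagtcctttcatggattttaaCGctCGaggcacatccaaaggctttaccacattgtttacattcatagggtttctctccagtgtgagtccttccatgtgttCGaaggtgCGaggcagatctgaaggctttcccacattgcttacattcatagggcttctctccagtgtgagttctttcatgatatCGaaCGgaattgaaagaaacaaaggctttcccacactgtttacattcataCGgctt
The other lies at chr19:12273801-12274100, across the transcription start of ZNF136, the promoter with the largest negative difference.
Promoter of ZNF136: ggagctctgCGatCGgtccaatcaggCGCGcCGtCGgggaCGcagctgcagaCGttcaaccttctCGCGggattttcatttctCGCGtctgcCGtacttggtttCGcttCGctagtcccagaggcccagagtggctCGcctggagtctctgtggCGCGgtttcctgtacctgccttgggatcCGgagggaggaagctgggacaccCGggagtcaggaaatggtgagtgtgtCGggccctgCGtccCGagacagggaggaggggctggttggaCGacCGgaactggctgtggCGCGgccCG

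In the ZNF625 exon, the 9 CpGs printed above had a summed level of 12.4% and 7.32% in WT 1 and 2, against 68.8% and 69.4% in ZNF274KO 1 and 2. All 9 lie in sequence that occurs once. The CpG at base 295 was already methylated in WT, at 66.7% and 57.1% of reads, and stood at 81.8% and 90% in ZNF274KO. In the ZNF136 promoter, the 28 CpGs had levels of 0.310% (WT 1), 0.629% (WT 2), 0% (ZNF274KO 1) and 6.70% (ZNF274KO 2). The 0 of 227 reads in ZNF274KO 1 would allow a level of up to 1.32% if the reads were independent, but single CpGs there had only 4 to 13 reads. The negative difference of that promoter therefore lay outside the printed stretch. Intervals and limits for single libraries cover counting error only and take every read at a CpG as independent. Reads at neighbouring CpGs are often from the same molecule, so the true intervals and limits are wider.

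The first comparison asked whether the level of the whole window differed between WT and ZNF274KO. The window stood at 57.3% in WT 1 and 56.9% in WT 2, and at 71.7% in ZNF274KO 1 and 66.8% in ZNF274KO 2. The groups did not overlap, and ZNF274KO 1 lay above ZNF274KO 2. The means were 57.1% ± 0.302 and 69.3% ± 3.45 (SD, n = 2), a difference of 12.2 points. With 2 libraries against 2 the two-sided exact permutation test cannot go below p = 0.333, and this difference gave that value. The difference was 10.9 points over CpGs in sequence that occurs once and 14.5 points over the other CpGs.

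**Figure D1:**
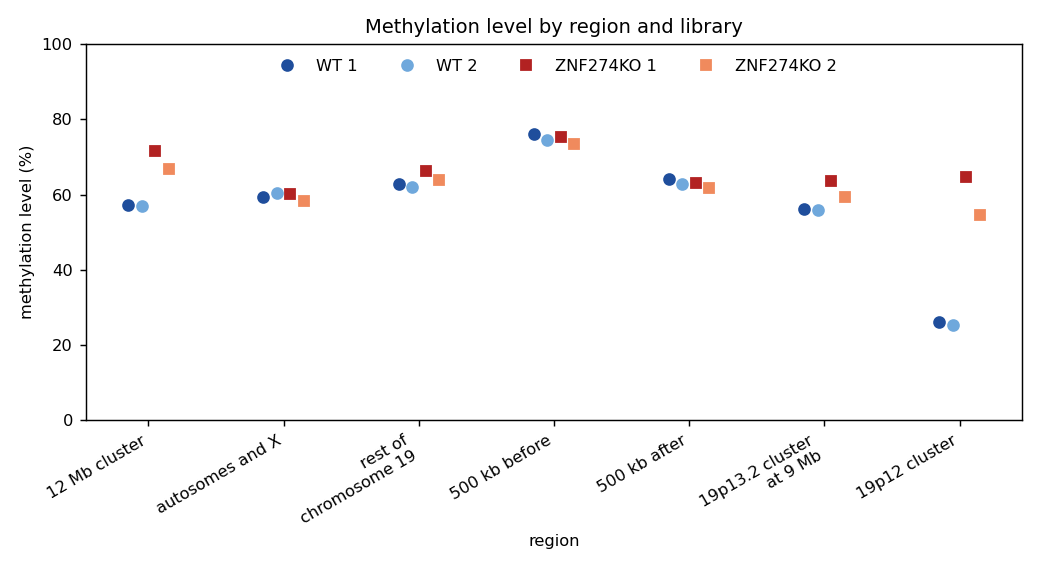
Methylation level in percent (y axis) of the 12 Mb cluster and of 6 regions set beside it (x axis), with circles for WT and squares for ZNF274KO libraries. The 12 Mb cluster stood at 56.9% to 57.3% in WT and 66.8% to 71.7% in ZNF274KO, while the groups overlapped over the autosomes and X and in the flanks on both sides.

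In the flanks of the cluster the groups overlapped. Over the autosomes and X, WT stood at 59.8% ± 0.819 and ZNF274KO at 59.3% ± 1.29 (SD, n = 2). The 500 kb before the window differed by -1.04 points and the 500 kb after it by -1.05 points. The rest of chromosome 19 stood at 62.9% and 62.1% in WT 1 and 2 and at 66.4% and 63.8% in ZNF274KO 1 and 2. The change of the window exceeded that of the autosomes and X by 12.7 points, that of either flank by 13 points and that of the rest of chromosome 19 by 9.59 points. In each of these comparisons the per-library differences of ZNF274KO all lay above those of WT, with p = 0.333 in the exact permutation test, the smallest it allows.

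The window was next set beside the zinc finger clusters nearest in kind. The cluster at 9 Mb of the same band (9200000 to 10000000) started from a similar level, 56.2% and 55.8% in WT 1 and 2, and reached 63.7% and 59.3% in ZNF274KO 1 and 2. The window at 12 Mb lay 1.13 and 1.08 points above it in WT 1 and 2, and 8.04 and 7.46 points above it in ZNF274KO 1 and 2, so that its change was larger by 6.65 points. The 19p12 cluster (20000000 to 24000000) stood at 26.1% and 25.4% in WT 1 and 2, and at 64.6% and 54.5% in ZNF274KO 1 and 2. Against it the change at 12 Mb was smaller by 21.7 points, and both differences gave p = 0.333 in the exact permutation test. WT levels in 19p12 were less than those at 12 Mb by 31.2 and 31.5 points, whereas the gap in ZNF274KO 1 and 2 was 7.05 and 12.3 points.

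The second comparison located the change along the window. Of the 220 tiles, 92 (41.8%) were called higher in ZNF274KO by edgeR's quasi-likelihood test with Benjamini-Hochberg adjustment over all tiles of the genome, against 0.424% of the 563514 tiles tested genome-wide. These 92 tiles were 3.85% of all 2387 tiles called higher. No tile of the window was called lower by edgeR. At an unadjusted p under 0.05, 10 tiles were lower and 125 higher, against 34753 of the 563514 tiles genome-wide in either direction. Limma on log2 ratios called 0 lower and only 16 higher, all of them among the 92, against 835 higher and 21 lower genome-wide. In 144 tiles the groups did not overlap and ZNF274KO lay higher (65.5%, against 13.5% of tiles genome-wide), and in 27 tiles both lay below, against 22.3% of tiles genome-wide. The median change was 10.4 points over the 220 tiles and -0.58 points over all tiles tested.

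Called tiles rose by a median of 32 points, with quartiles of 24.3 and 39.6 points and a range of 12.6 to 50.4 points. Their mean was 37.2% (WT 1), 36% (WT 2), 73.1% (ZNF274KO 1) and 63.8% (ZNF274KO 2). Tiles that were not called stood at 69.2%, 69.0%, 73.0% and 70.8% in the same order. In ZNF274KO 1 the called tiles therefore stood at the mean level of the tiles that were not called, and in ZNF274KO 2 below it. ZNF274KO 1 was higher than ZNF274KO 2 in all 92 called tiles, with a median gap of 8.84 points, whereas WT 1 was higher than WT 2 in 58 of them, with a median gap of 2.49 points in size. The read depth of called tiles in ZNF274KO relative to WT had a median of 1.001, with a range of 0.804 to 1.27, against a median of 1.02 in the other tiles.

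**Figure D2:**
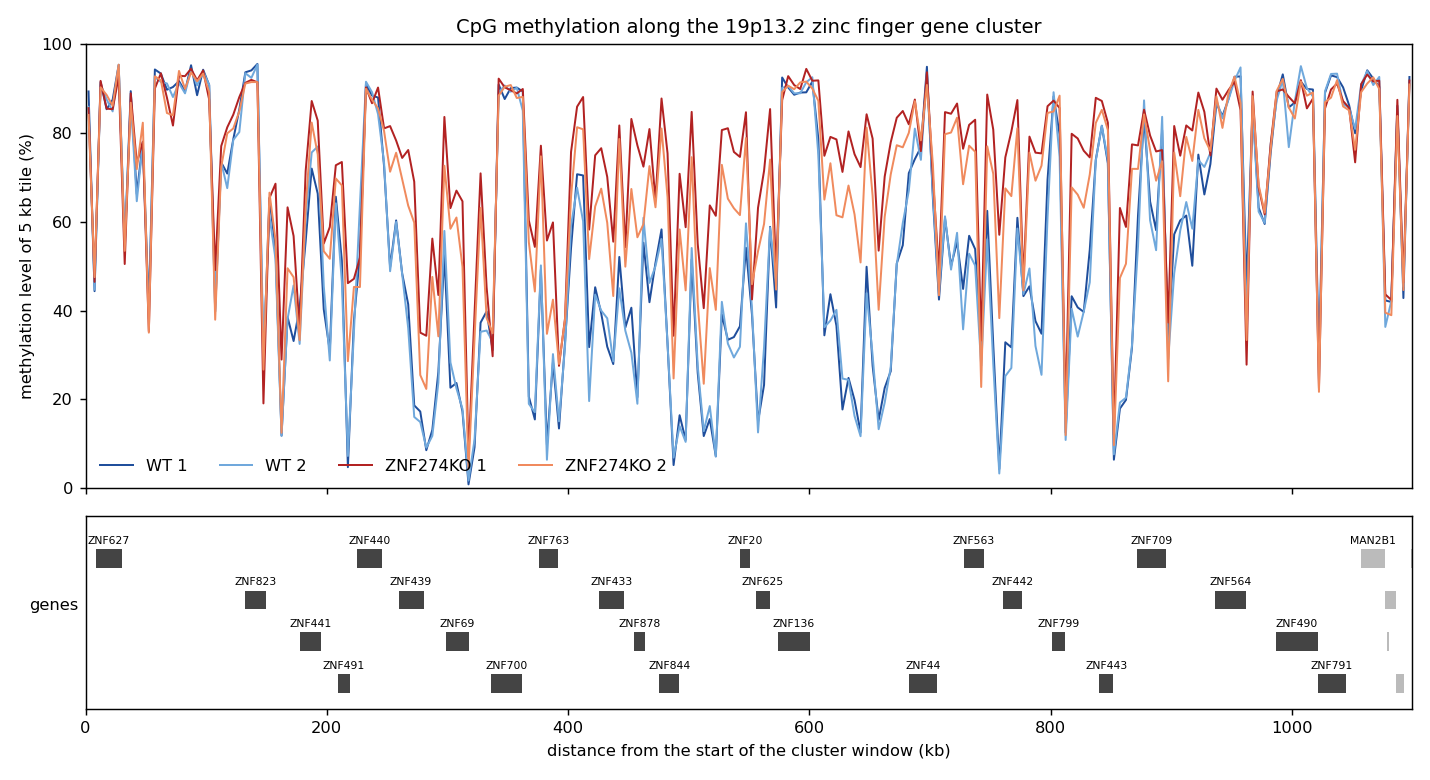
Methylation level in percent of each 5 kb tile (y axis) against distance from the start of the window in kb (x axis), 1 line per library, with the bodies of zinc finger genes (dark bars) and other genes (light bars) below. The lines of the groups part most between about 200 and 925 kb, where all called tiles lie and where, in those tiles, ZNF274KO 1 is highest and both WT libraries are lowest. Tiles outside that range differ by -10.3 to 18.1 points.

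The called tiles lay between 11900001 and 12625000, a stretch of 145 tiles that starts 200 kb into the window. Within it the level was 46.8% and 46.5% in WT 1 and 2, and 70.6% and 63.2% in ZNF274KO 1 and 2, a difference of 20.3 points. The 40 tiles before it, with ZNF627, ZNF823 and ZNF441, stood at 70.7% ± 0.182 in WT and 71.6% ± 1.33 in ZNF274KO (SD, n = 2). The 35 tiles after it, with ZNF564, ZNF490, ZNF791 and the 6 genes without a finger array, stood at 74.0% ± 0.480 and 73.8% ± 0.339 (SD, n = 2). In both outer stretches the groups overlapped in their summed level. Single tiles there differed by -6.57 to 18.1 points before the stretch and by -10.3 to 12.5 points after it, and none passed the test. With no overlap of the groups, ZNF274KO lay higher in 16 (40%) and lower in 10 (25%) of the 40 tiles before it, and higher in 7 (20%) and lower in 10 (28.6%) of the 35 after it, against 13.5% higher and 22.3% lower genome-wide. These borders follow from the calls and were not tested.

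The called tiles formed 21 runs of neighbouring tiles, of which 5 were at least 5 tiles long and held 49 tiles together. The longest, from 12165001 to 12250000, covered 17 tiles and 1466 CpGs over ZNF844 and ZNF20, and stood at 35.5% and 36.1% in WT 1 and 2 and at 71.9% and 61.2% in ZNF274KO 1 and 2. A run of 15 tiles from 12305001 to 12380000 overlapped no gene body, taken from the chosen transcript of each named gene. Other transcripts and unnamed loci were not checked there. This run lies between the bodies of ZNF136 and ZNF44, and its level was 39.7% and 38.6% in WT 1 and 2 against 79.1% and 69.9% in ZNF274KO 1 and 2. The other 3 long runs lay over ZNF439 (11950001 to 11975000), ZNF563 (12410001 to 12440000) and ZNF442 (12445001 to 12475000). Of the 53 uncalled tiles inside the stretch of called tiles, 26 stood over 70% in WT 1, 19 between 30 and 70% and 8 under 30%. In 29 of them (54.7%, against 13.5% genome-wide) ZNF274KO lay higher with no overlap of the groups, and in 7 (13.21%, against 22.3%) lower. The 53 tiles differed by -9.66 to 29.2 points. A tile within ZNF700 (12045001 to 12050000), for example, stood at 87.6%, 90.7%, 90.2% and 90.4% in WT 1, WT 2, ZNF274KO 1 and ZNF274KO 2. A tile at the end of ZNF69 (from 12015001), also uncalled, stood at only 0.887%, 1.73%, 7.18% and 4.44% in the same order.

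**Figure D3:**
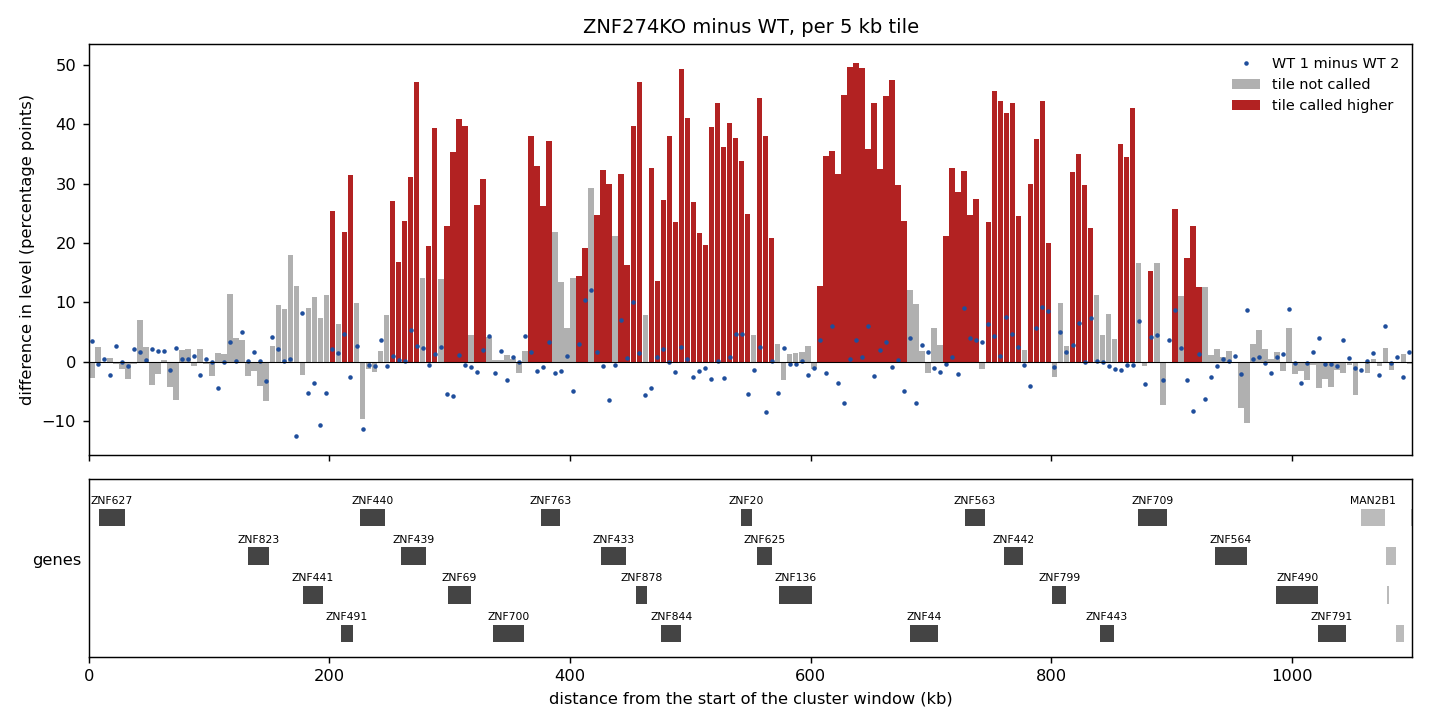
ZNF274KO minus WT in percentage points (y axis) for each 5 kb tile against distance from the start of the window in kb (x axis), with called tiles in red, other tiles in grey and blue points for WT 1 minus WT 2, above the gene bodies. The 92 red bars rise by 12.6 to 50.4 points, and none lies in the first 200 kb or beyond 925 kb.

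The 5 largest rises among called tiles were 47.4 to 50.4 points, and 4 of the 5 tiles lay in the run between the bodies of ZNF136 and ZNF44. The tile from 12335001 to 12340000 stood at 19.9% and 16.3% in WT 1 and 2 and at 75.2% and 61.7% in ZNF274KO 1 and 2, a rise of 50.4 points (edgeR adjusted p = 0.000103). Next to it, the tile from 12330001 rose by 49.6 points (edgeR adjusted p = 0.000213), from 24.8% and 24.4% to 80.3% and 68.1%. The tile from 12340001 was the least methylated of the 5 in WT, at 12.6% and 11.7%, and stood at 72.3% and 50.8% in ZNF274KO. In the tile from 12365001 the levels were 26.3% and 27.3% in WT and 77.9% and 70.6% in ZNF274KO. The remaining tile, from 12190001, covers the end of ZNF844 and rose by 49.3 points (edgeR adjusted p = 3.52e-05), from 16.4% and 14.0% to 70.8% and 58.3%. In none of the 5 did the groups overlap.

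How far a tile moved went with where it started. No level can exceed full methylation, so tiles that started high had little room to rise, and part of this pattern was fixed beforehand. To keep the starting level apart from the change, tiles were grouped by WT 1 and the change was taken against WT 2, as a description with no test. The 43 tiles under 30% in WT 1 had a median of 16.3% in WT 2 and of 58.8% and 44.3% in ZNF274KO 1 and 2, and 32 of them were called. The 95 tiles between 30 and 70% had medians of 45.5% in WT 2 and 75.4% and 67.4% in ZNF274KO 1 and 2, and 56 were called. The 82 tiles over 70% had medians of 88.5%, 88.9% and 88.1%, and 4 were called. The calls use WT 1 as well, so their counts are not independent of the grouping. The share called among all tiles of the same starting level was not counted genome-wide. The median change against WT 2 was thus 34.3, 21.1 and 0.308 points in the 3 sets of tiles.

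At single CpGs the change appeared as fewer sites of low methylation. Among the 4624 CpGs of called tiles with at least 5 reads in every library, 40.9% (WT 1) and 42.3% (WT 2) had a level under 20%, against 6.68% (ZNF274KO 1) and 12.2% (ZNF274KO 2). CpGs over 80% made up 23.2% and 21.2% in WT 1 and 2, and 56.3% and 44.6% in ZNF274KO 1 and 2. The share in between was 35.9%, 36.5%, 37% and 43.2% in the same order. These CpGs belong to tiles chosen by their change, so the shares are a description. Over all 12536 such CpGs of the window the shifts were smaller. There 29.5% and 29.7% had a level under 20% in WT 1 and 2, against 15.3% and 17.8% in ZNF274KO 1 and 2, and 45.1% and 43.6% had a level over 80%, against 57.8% and 52.1%.

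Summed over the window, the difference was largest between genes, here the space outside bodies and promoters of named protein-coding genes. The pseudogene ZNF788P was not counted as a gene. The 9038 CpGs between genes, 50.9% of the window, stood at 55.7% and 54.9% in WT 1 and 2 and at 75% and 69.5% in ZNF274KO 1 and 2, a difference of 17.0 points. Last coding exons differed by 10.5 points (63.8% and 63.3% in WT, 77% and 71% in ZNF274KO), and the rest of gene bodies by 9.68 points (71.7% and 71.5% against 82.8% and 79.8%). In these 3 classes the groups did not overlap, with p = 0.333 in the exact permutation test. CpGs within 1 kb of a transcription start stood at 27.6%, 28.9%, 30.2% and 28.8% in WT 1, WT 2, ZNF274KO 1 and ZNF274KO 2. The groups overlapped, with a difference of 1.31 points that varied with the processing. In the same way, 57 of the 100 tiles that overlap no body of a named protein-coding gene were called (57%), including tiles over ZNF788P. Of the 111 that overlap a zinc finger gene body, 35 were called (31.5%).

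The third comparison took the genes one by one. Of the 24 zinc finger gene bodies, 9 were called higher (37.5%, against 0.657% of the 19478 gene bodies tested), 15 did not pass the test and none was called lower by edgeR. At an unadjusted p under 0.05, 11 were higher and 2 lower, against 1367 of all 19478 gene bodies in either direction. Limma called 0 of the 24 in either direction, against 45 higher and 6 lower of all gene bodies. In 13 of the 24 bodies ZNF274KO lay higher with no overlap of the groups (54.2%, against 9.32% of all gene bodies), and in 5 it lay lower, against 30.8% of all gene bodies. The median change was 3.52 points, against -0.94 points over all gene bodies. None of the 6 other gene bodies was called, with changes between -1.54 and 1.59 points in 5 of them and of -5.23 points in FBXW9, whose body lies mostly outside the window. Without ZNF274KO 1, which had the higher levels, 4 bodies were called higher, and all 4 (ZNF439, ZNF763, ZNF844 and ZNF625) were among the 9.

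ZNF625, which encodes a protein with 8 fingers in its last exon, had the largest rise. Its body (12255705 to 12267549, minus strand) stood at 32.5% and 33.2% in WT 1 and 2 and at 73.6% and 62.0% in ZNF274KO 1 and 2, a rise of 35.0 points (edgeR adjusted p = 0.000879). ZNF69 (11998597 to 12017511, plus strand) followed with 25.8% and 33.1% in WT and 66.3% and 56.9% in ZNF274KO (32.1 points, edgeR adjusted p = 0.00136). Both were among the least methylated gene bodies of the window in WT, and in both the groups were far apart. ZNF844 (12175546 to 12192380, plus strand) went from 40.4% and 38.7% to 72.2% and 64.7%. ZNF763 went from 31.7% and 30.8% to 65.6% and 54.1%. ZNF439 went from 38.9% and 38.2% to 69.2% and 62.2%. These 3 genes rose by 28.9, 28.6 and 27.1 points, and the gap between the ZNF274KO libraries was 7.04 to 11.5 points. The body of ZNF442 stood at 41.8% and 39.9% in WT and at 69.6% and 61.0% in ZNF274KO. That of ZNF433 stood at 36.2% and 36.6%, against 64.6% and 56.8%. ZNF491 started higher, at 48.8% and 51.0%, and reached 70.7% and 66.9% (18.8 points, edgeR adjusted p = 0.0093). In reads of the c (Crick) strand alone it rose by 14.0 points and was not called (edgeR adjusted p = 0.313). ZNF20, the remaining called body, rose by 16.5 points (edgeR adjusted p = 0.0161). It was not called in reads of the w (Watson) strand alone or of the c strand alone.

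The bodies of ZNF878 and ZNF563 differed by amounts close to those of ZNF491 and ZNF20 but did not pass the test. The ZNF878 body stood at 42.4% and 45.9% in WT and at 74.5% and 55.6% in ZNF274KO (20.9 points, edgeR adjusted p = 0.172), and that of ZNF563 at 47.9% and 43.3%, against 67.9% and 55.3% (16.0 points, edgeR adjusted p = 0.193). In both the ZNF274KO libraries lay 12.6 points or more apart, further than in any of the 9 called bodies. Both were called higher when WT 1, WT 2 or ZNF274KO 2 was left out, and neither was without ZNF274KO 1. Higher calls over all gene bodies moved the same way, rising in the former fits and falling in the last. Each of these fits leaves a lone library in a group. The pseudogene ZNF788P, at 12203283 to 12223863 between ZNF844 and ZNF20, was not among the gene bodies tested. Its level was 22.6% and 25.7% in WT 1 and 2 and 60.3% and 45.1% in ZNF274KO 1 and 2.

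The 15 zinc finger bodies that did not pass the test differed by -7.51 to 20.9 points. The largest negative difference was that of ZNF823, at 73.5% and 77.3% in WT 1 and 2 and at 65.5% and 70.2% in ZNF274KO 1 and 2 (edgeR adjusted p = 0.412, unadjusted p = 0.0071), and without WT 1 it was called lower. Lower calls over all gene bodies also became more frequent in that fit, which leaves a lone WT library. In ZNF440 (-4.92 points) and ZNF564 (-4.14 points) ZNF274KO also lay lower with no overlap of the groups. Among all 30 gene bodies the smallest changes were those of ZNF700 (76.3%, 76.5%, 75.4% and 77.2% in WT 1, WT 2, ZNF274KO 1 and ZNF274KO 2), ZNF443 (45.3%, 48.6%, 47.0% and 46.7%) and WDR83 (43.0%, 44.4%, 46.3% and 41.6%). WDR83 encodes a WD40 repeat protein and has no finger array. In each of these 3 the groups overlapped. ZNF700 lies between the called genes ZNF69 and ZNF763, and ZNF443 lies between called tiles on either side. ZNF136, next to ZNF625, stood at 80.8% and 83.1% in WT and at 82.0% and 79.2% in ZNF274KO.

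**Figure D4:**
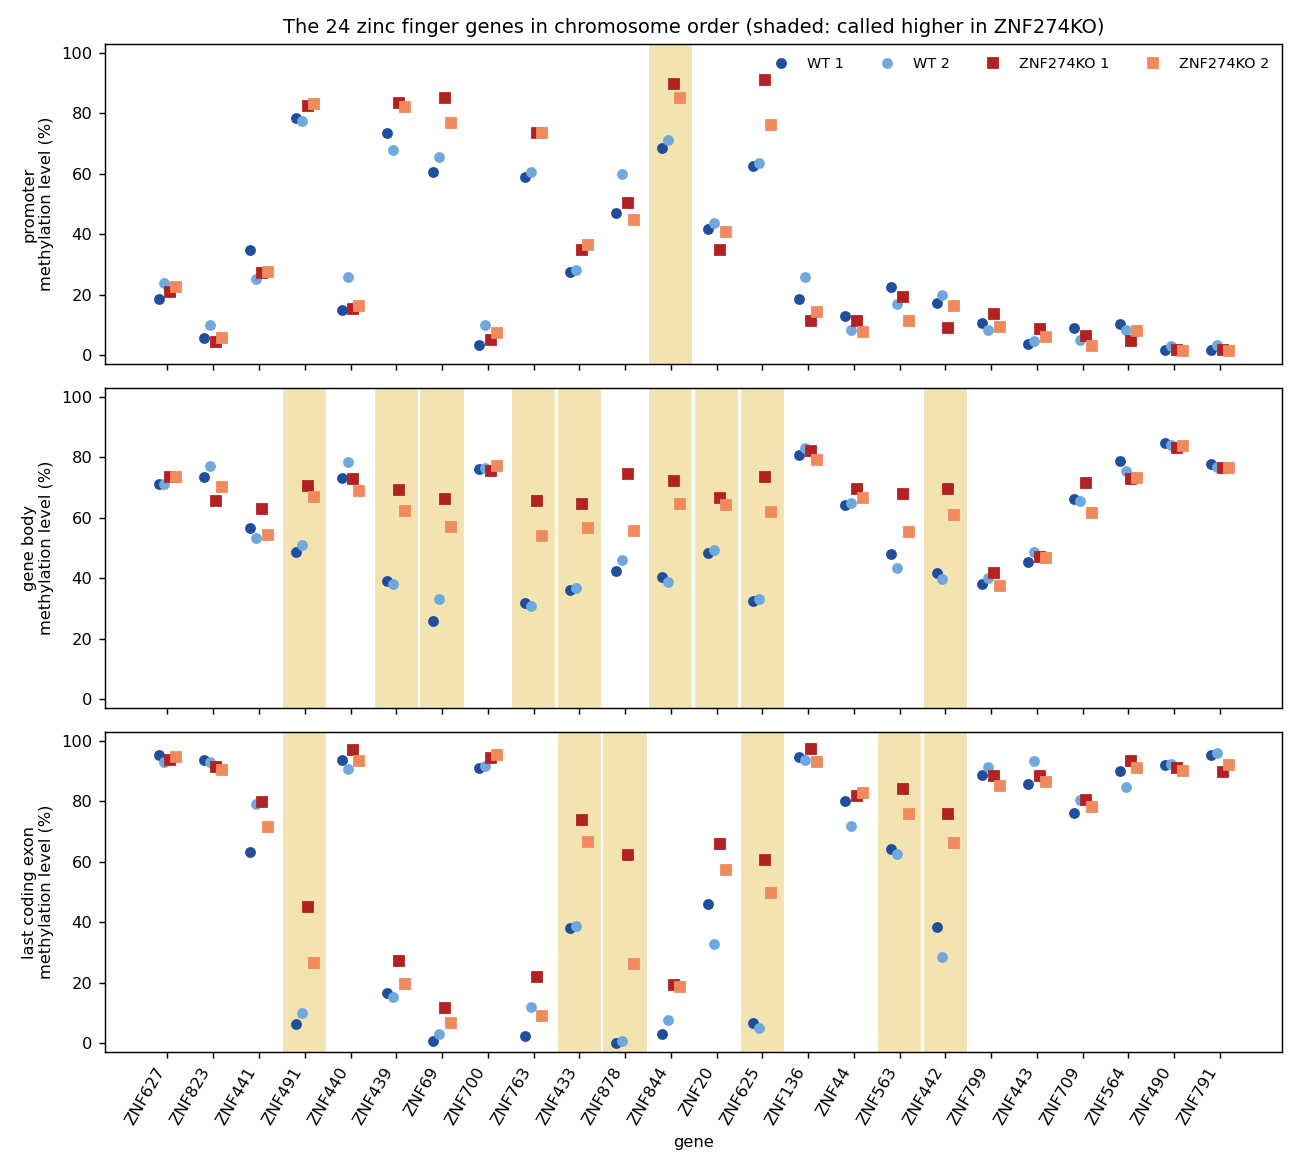
Methylation level in percent (y axis) of the promoter, gene body and last coding exon of the 24 zinc finger genes in chromosome order (x axis), with circles for WT and squares for ZNF274KO libraries, and shading for regions called higher. Shaded bodies and exons lie in the middle of the window, from ZNF491 to ZNF442, among genes such as ZNF700, whose body stood at 75.4% to 77.2% in the 4 libraries.

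The last coding exon of these genes encodes the finger array. Of the 24, 6 were called higher (25%, against 1.06% of the 9437 last coding exons tested), 18 did not pass the test and none was called lower by edgeR. At an unadjusted p under 0.05, 10 were higher and 1 lower, against 632 of the 9437 exons in either direction. Limma called 1 (ZNF625) higher and 0 lower, against 9 higher and 0 lower of all last coding exons. In 13 of the 24 exons ZNF274KO lay higher with no overlap of the groups (54.2%, against 14% of all last coding exons), and in 4 it lay lower, against 21.9% of all last coding exons. The median change was 5.61 points, against -0.50 points over all last coding exons. These are short regions of 925 to 1975 bases, and the number of calls moved with single libraries: 2 were called without ZNF274KO 1 (ZNF625 and ZNF878), 3 without WT 1 (those and ZNF442).

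In WT several of these exons were almost free of methylation. The exon of ZNF878 (12154623 to 12156024, 14 fingers, 12 CpGs) was methylated in 0 of 121 reads in WT 1 and in 0.781% of 128 reads in WT 2. The 0 in WT 1 would allow a level of up to 2.48% if the reads were independent. In ZNF274KO 1 it stood at 62.2% of 90 reads (95% Wilson interval 51.9 to 71.5) and in ZNF274KO 2 at 26.1% of 111 reads (18.9 to 35.0). The rise of 43.8 points passed the test (edgeR adjusted p = 0.000125), while the ZNF274KO libraries differed by more than their counting intervals. The exon of ZNF625 stood at 6.52% and 4.93% in WT and at 60.5% and 49.6% in ZNF274KO (49.3 points, edgeR adjusted p = 1.55e-06). This was the largest rise of a last coding exon in the window, and it includes the exon sequence printed above.

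The other called exons started from different levels. That of ZNF491 was low in WT, at 6.17% and 9.83%, and stood at 45.1% and 26.4% in ZNF274KO. The exons of ZNF442 and ZNF433 were intermediate in WT. ZNF442 went from 38.4% and 28.3% to 75.7% and 66.1%, and ZNF433 from 38.2% and 38.8% to 74.0% and 66.7%. ZNF563 started at 64.4% and 62.5% and reached 84.2% and 75.8% (16.6 points, edgeR adjusted p = 0.0372). It did not pass the test when any 1 of the 4 libraries was left out, with edgeR adjusted p between 0.0873 and 0.845. In all 6 the groups did not overlap.

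Some exons stayed low although the body around them rose. The ZNF69 exon stood at 0.599% and 2.92% in WT and at only 11.7% and 6.56% in ZNF274KO, where its body was at 66.3% and 56.9%. ZNF439 (16.7% and 15.1% in WT, 27.2% and 19.6% in ZNF274KO), ZNF763 (2.34% and 11.9%, against 21.8% and 8.89%) and ZNF844 (3.15% and 7.69%, against 19.1% and 18.7%) behaved likewise, and none of these 4 exons passed the test. The exons of ZNF627, ZNF823, ZNF440, ZNF700, ZNF136, ZNF490 and ZNF791, by contrast, had levels of at least 89.7% in every library.

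Splitting the 24 genes at a last-exon level of 50% in WT 1 gave 10 genes below it and 14 above. Changes are taken here against WT 2 alone. In the 10 low genes the last exon changed by a median of 27.3 points, the body by 26.4 points and the promoter by 10.3 points. In all 10 both ZNF274KO bodies lay above that of WT 2. The share of all gene bodies above WT 2 alone was not counted, and 9.32% lay above both WT libraries. In the 14 high genes the medians were 0.113, -0.518 and -1.70 points, and their last exons had little room to rise. The 9 called bodies were all among the 10 low genes, a count that is not independent of the split, because the calls use WT 1 as well. Finger number overlapped between the sets, at 6 to 18 in the low genes (median 11) and 10 to 19 in the high genes (median 14.5), and so did CpG density, at medians of 9.77 and 11.8 CpGs per kb of exon.

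Along the low genes the summed level was higher in ZNF274KO from upstream to downstream, but single promoters differed in direction. Against WT 2 these promoters changed by -12.5 to 19.8 points, and those of ZNF878, ZNF442 and ZNF20 had lower means in ZNF274KO. In WT 1 the level was 47.5% from 5 to 1 kb upstream, 53.9% in the promoter, 51.0% in the first part of the body and 27.9% in its last part, when the stretch from promoter to exon is cut into 4 equal parts, and it was lowest, at 15.7%, in the last coding exon. WT 2 stood at 16.02% in that exon. This is no independent check, since the genes were chosen for a low exon in the same cell line. ZNF274KO 1 stood at 75.9%, 65%, 81.2%, 68.2% and 48.8% over the same parts, and ZNF274KO 2 at 68.5%, 61.7%, 75.7%, 56.3% and 37%. The exon was thus the least methylated of these parts in both groups, which follows in part from choosing the genes by its level in WT 1. In the high genes the promoter was low in all 4 libraries, between 10.1% and 12%, and the exon was between 86.1% and 89.1%. The first part of the body of the high genes was lower in ZNF274KO, at 87.4% and 87.7% in WT 1 and 2 and at 82.5% and 83.6% in ZNF274KO 1 and 2. The other 3 parts were higher in both ZNF274KO libraries, by 1.48 to 2.58 points. In the 5 kb downstream WT 1 and 2 were at 69.1% and 69.2%, and ZNF274KO 1 and 2 at 78.4% and 76.9%.

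**Figure D5:**
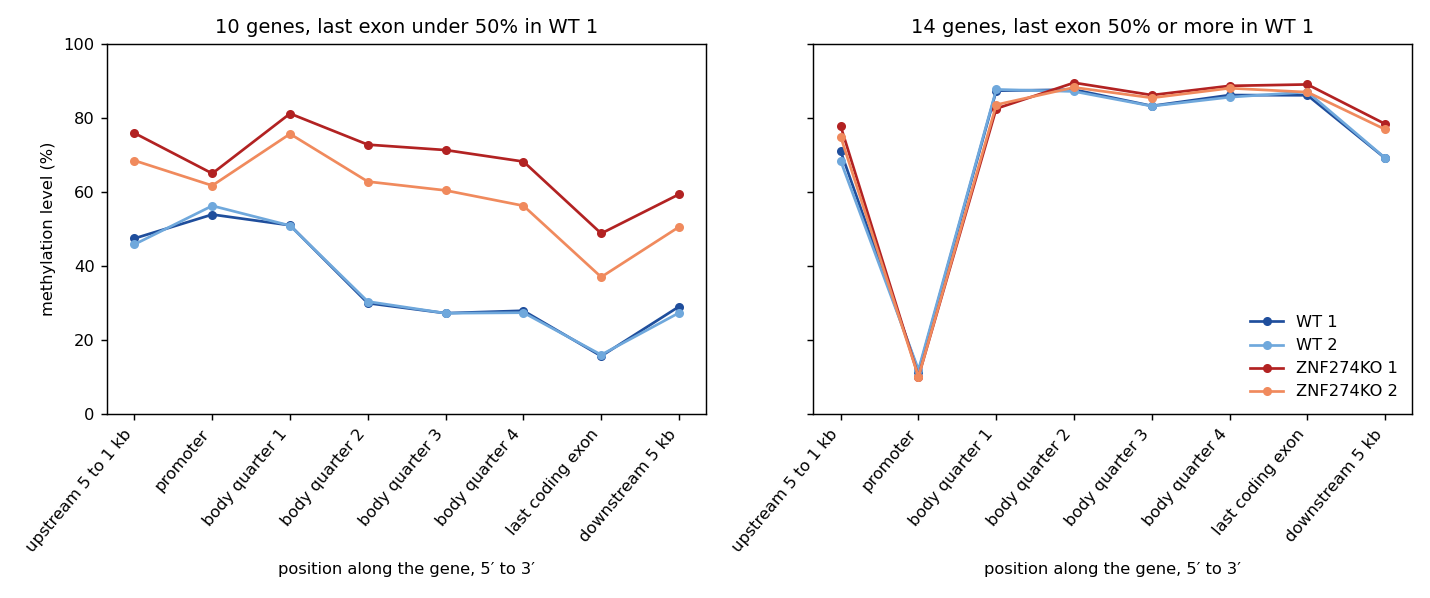
Summed methylation level in percent (y axis) over parts of the gene from 5′ to 3′ (x axis), 1 line per library, for the 10 genes with a last exon under 50% in WT 1 (left) and the 14 with 50% or more (right). On the left the WT lines fall to about 16% in the last coding exon while ZNF274KO stays above them throughout, and on the right all 4 lines share a low promoter and a high body. The sums on the left hide promoters that differ in direction between genes.

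Promoters, taken as 1 kb on either side of the transcription start, gave the fewest calls. Of the 24, 1 was called higher (4.17%, against 0.201% of the 19422 promoters tested) and none lower by edgeR. The promoters of ZNF490 (12720627 to 12722627) and ZNF791 (12720734 to 12722734) overlap almost wholly, yet each is counted. At an unadjusted p under 0.05, 7 were higher and 1 lower, against 1246 of the 19422 in either direction. Limma called 0 in either direction, and also 0 over all 19422 promoters. The called promoter was that of ZNF844, at 68.7% and 71.3% in WT 1 and 2 and at 89.8% and 85.0% in ZNF274KO 1 and 2 (17.4 points, edgeR adjusted p = 0.0216). It was not called without ZNF274KO 1 (edgeR adjusted p = 0.102). The number of promoters called varied between 0 and 4 as single libraries were left out.

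The 4 largest positive differences belonged to promoters that were methylated in WT. Beside ZNF844 these were ZNF625 (62.8% and 63.8% in WT, 91.1% and 76.1% in ZNF274KO), ZNF69 (60.7% and 65.6%, against 85.2% and 76.8%) and ZNF763 (58.9% and 60.5%, against 73.4% and 73.6%), none of which passed the test. Those of ZNF625 and ZNF69 were called higher when WT 1, WT 2 or ZNF274KO 2 was left out, but not without ZNF274KO 1. Higher calls over all promoters moved the same way, rising in the former fits and falling in the last. With single libraries left out, the differences ranged from 12.8 to 27.9 points (ZNF625) and from 13.7 to 22.1 points (ZNF69). The 4 largest negative differences did not pass it either. They were ZNF136 (18.5% and 25.9% in WT, 11.4% and 14.1% in ZNF274KO), ZNF878 (47.1% and 60.03%, against 50.5% and 44.6%), ZNF442 (17.1% and 19.9%, against 9.0% and 16.3%) and ZNF20 (41.7% and 43.7%, against 34.6% and 40.8%). The direction was not stable in 2 of them, since ZNF20 differed by -16.1 points in reads of the w (Watson) strand and by 4.08 points in those of the c (Crick) strand, and ZNF878 by 0.427 points without WT 2. In 6 zinc finger genes (ZNF491, ZNF439, ZNF69, ZNF763, ZNF844 and ZNF625) the promoter was over 50% in WT 1, and in all 6 both ZNF274KO promoters lay above both WT promoters and the body was called higher, a description only, since WT 1 enters both the split and these counts. Of the 18 promoters at 50% or less, 2 lay higher in both ZNF274KO libraries and 4 lower, and 3 of the 18 bodies were called. Over all 24 promoters, 8 (33.3%) had higher levels in ZNF274KO with no overlap of the groups, against 14.4% of promoters genome-wide, and 4 had lower levels, against 20.3%. The median change of the 24 was -0.903 points, against -0.173 points over all promoters tested. The methylated promoters held 70 to 98 CpGs and the others 74 to 106.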

How the data were processed

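Libraries took their group (WT or ZNF274KO) and number from their titles. The authors aligned the 100-base read pairs with Msuite2 and HISAT2 to hg19, extended by an rDNA sequence. They deposited 1 table per library of read counts by CpG, strand and base call, neither pooled nor normalised. How duplicates and poorly mapped reads were treated is not given in the sources used here, and a read spanning several CpGs is counted at each.

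Each site was checked to be a CG in GRCh37. Coordinates are 1-based. The annotation was GENCODE release 44 lifted to GRCh37, with each gene represented by its canonical transcript, or where none is marked (here ZNF442) by that with the longest coding sequence. Unnamed read-through loci were fitted but not counted here. The exons of ZNF763 and ZNF844 are shared with such loci. For the autosomes and X, counts were added up within 5 kb tiles, gene bodies, promoters and last coding exons, each with at least 20 reads and 5 CpGs in every library. All 220 tiles and all 24 zinc finger bodies, promoters and last exons passed. Tiles held a median of 703 (WT 1), 594 (WT 2), 682.5 (ZNF274KO 1) and 532.5 (ZNF274KO 2) reads.

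Methylated and unmethylated counts were tested with edgeR 4.0.16 in R 4.3.3 (quasi-likelihood test, 1 coefficient per library, methylation log-odds and their ZNF274KO term), with Benjamini-Hochberg adjustment over all regions of a kind and a call at adjusted p under 0.05. The dispersion was set to 0, so that the quasi-likelihood spread carries all variation, a choice made after simulated reads had been fitted. A fit with a common dispersion is kept as an alternative. Group levels were compared by exact permutation in scipy 1.17.1. Alternatives were limma 3.58.1 on log2 ratios with 1 added to both counts, a replicate block, minimums of 10 or 50 reads, CpGs deeper than 5 times the median dropped, log-odds centred genome-wide, 1 strand, unique sequence, other sizes of tiles and promoters, and single libraries left out, where the lone library of a group adds nothing to the estimate of spread and is assumed to vary like the other group. The model was also run on simulated reads with equal spread in both groups, unlike the called tiles. Its outcome is not reported here, and the run is no check of the calls.

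Every zinc finger gene may be named. Per-library values are given for called bodies and last exons (up to 8), the 4 largest rises and falls among promoters, the 5 largest rises among called tiles and the 3 smallest body changes. Other genes with values were chosen after these were seen. The members and lists were chosen with earlier results of these data known. The sequence within the tile of largest rise is not reported here.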

Additional observations from a re-analysis of the deposited data

How the results depend on the processing

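Of the 220 tiles, 92 were called, and limma called 16, all among them. The other settings on 5 kb tiles called between 70 and 112. With 10 kb tiles 44 of 110 were called, against 1046 of 282601 genome-wide, and with 2 kb tiles 224 of 546, against 6572 of 1357123. These totals include lower calls: 1 with the replicate block, 3 with crossed numbers, 2 with a common dispersion, 2 without WT 1, 1 without WT 2, 3 with 2 kb tiles and 1 in sequence that occurs once. For gene bodies (9 called), limma called 0, and without a library 4 to 12 were called, of which 1 (ZNF823, without WT 1) was lower. For last coding exons (6 called), limma called 1, and without a library 2 to 5 were called. For promoters (1 called), limma, the w strand alone, the c strand alone and a common dispersion each called 0. Centring on the genome-wide level called 2 promoters (ZNF844 and ZNF69), against 57 genome-wide, and 500 bases either side of the start 2, against 56. The replicate block called 5 (ZNF844, ZNF439, ZNF625, ZNF69 and ZNF763), against 195 genome-wide. Whether same-numbered libraries share a batch or day is not given in the sources used here. WT 1 minus WT 2 correlated with ZNF274KO 1 minus ZNF274KO 2 at -0.108 over 563514 tiles. That value cannot decide it, since tile differences also hold counting error. With the replicate block 101 tiles, 10 gene bodies and 8 last coding exons were called. The w strand alone called 8 gene bodies and 5 last coding exons, against 96 and 55 genome-wide. For the c strand alone these were 7 and 6, against 95 and 108. With crossed numbers in the block, chosen after seeing the data, 112 tiles, 11 gene bodies, 3 promoters and 8 last coding exons were called. Over the whole genome the tiles called rose as well, from 2446 in the main fit to 3607 with the replicate block and 6780 with crossed numbers. In the same order, gene bodies called genome-wide rose from 132 to 175 and 257. Last coding exons rose from 105 to 160 and 163, and promoters from 51 to 195 and 89. Over the named regions no alternative reversed a called difference. The 75th percentile over CpGs, which the authors used to summarise regions, gave a smaller value. By it the median difference of the 24 zinc finger bodies was 2.28 points, against 3.52 points from summed reads. The cause of these differences was not tested. Depth limits short regions: last coding exons had 90 to 374 reads per library in the zinc finger genes and single tiles as few as 56, and with 2 libraries per group no permutation test of a group difference can fall below 0.333. The levels of the whole window and of the 4 position classes kept their direction under every alternative run for them, but the promoter class, at 1.31 points, ranged from 0.292 (w strand) to 2.25 (c strand) and from 0.616 to 2.01 without a library. The groups of that class did not overlap with at least 3 reads per CpG, on the c strand or in the unweighted mean.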
